A study of Mus musculus with 20 samples.

Results

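The genes described here encode the vacuolar proton ATPase, the pump that acidifies lysosomes, endosomes and secretory vesicles, and the accessory proteins that go with it. They were taken by symbol from the deposited tables of HuR knockdown (HuR KD) in livers of humanized and wild-type (WT) mice, and comprise 10 genes among 60607 human genes and 9 genes among 55335 mouse genes. ATP6V0E1 has no mouse gene of the same symbol, and the mouse gene named Atp6v0e is given beside it. The genes were chosen by values of these data: their log2 fold changes between HuR KD and LacZ livers were known, and ATP6AP1 was selected on its opposite directions in human and mouse. The values of that contrast are therefore given as a description of these 10 genes, without a test.

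The pump has a membrane sector (V0), through which protons pass, and a cytosolic sector (V1), which hydrolyses ATP and turns a central rotor. In liver cells it provides the acid environment in which lysosomal enzymes work and in which internalized receptors release their ligands, and its membrane surface also serves the amino acid sensing that controls mTORC1. ATP6AP1 and ATP6AP2 are membrane proteins that assist the assembly and targeting of the pump and are not part of its catalytic core. HuR, encoded by ELAVL1, is an RNA-binding protein that attaches to U-rich and AU-rich stretches, many of them in 3′ untranslated regions (3′ UTRs).

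Livers came from 20 mice. WT mice were male C57BL/6 animals bought at 8 weeks of age, of which 6 received adenovirus with a shRNA against mouse HuR and 6 a LacZ control adenovirus. Humanized mice were TK-NOG animals, an immune-deficient strain whose liver carries a herpes simplex thymidine kinase transgene driven by a mouse albumin promoter, so that ganciclovir removes the host hepatocytes. They were given 25 mg/kg ganciclovir at 8 to 9 weeks of age and then 1000000 primary human hepatocytes, and were used once serum human albumin exceeded 0.5 mg/ml, 8 to 12 weeks after the transplant. Of these, 4 received adenovirus with a shRNA against human HuR and 4 the LacZ virus. All mice received 2000000000 pfu and were fasted for 4 h before tissue collection on day 7. The host keeps its own non-parenchymal cells, and the table of the humanized livers holds human genes alone. Virus, host strain and read length (75 bases in humanized and 50 bases in WT livers) differ between the sets, so an effect of species and an effect of these cannot be told apart. Values are TPM, a level per gene length that the authors scaled to the same sum in every library, within each table.

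The depth, recovered from the steps of the TPM, ran from 2670469 to 20302454 reads on genes in humanized livers and from 1423985 to 44668272 in WT livers. Humanized HuR KD 4 and LacZ 2 were the deepest of their set, and WT LacZ 2 and HuR KD 6 the shallowest. WT LacZ 2 and HuR KD 6 correlated less with their own group (median r of 0.925 and 0.958) than the other WT livers did. Several results are also given without some of these livers. Human ELAVL1 was 3.46 ± 0.76 TPM in HuR KD and 5.67 ± 0.62 in LacZ livers (SD, n = 4 each), and mouse Elavl1 was 4.91 ± 0.69 and 9.50 ± 0.79 (SD, n = 6 each). The groups did not overlap for either gene. The 8 hepatocyte markers all passed 1 TPM in humanized livers, where their summed level was 41586 to 92279 TPM, and so did the 6 of them found in the WT table (69654 to 86408 TPM). In humanized livers 6 of 13 human macrophage markers (C1QA, C1QB, C1QC, CLEC4F, MARCO and VSIG4) were listed at 0 in every liver.

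Because HuR acts through RNA sequence, the positions and 3′ UTR letters of the mouse genes are given first (GENCODE M21, build GRCm38). Atp6ap1 (ENSMUSG00000019087.13) lies on the plus strand of chromosome X from 74297097 to 74304721 and has 10 exons in its principal transcript. Its 3′ UTR is 715 bases long, against a median of 882 bases over 20252 mouse genes. It holds the AU-rich letters ATTTA at a single place and a single run of at least 5 T. The windows around both are shown with the motif in capitals, 5′ to 3′ on the RNA strand, beside the only ATTTA of Atp6v0c and of Atp6v1b2, since these are the other members with exactly 1.
Atp6ap1 ATTTA, chrX:74304287-74304315, plus strand, base 293 of the 3′ UTR: ccctctctccttATTTAttcttgcccctc
Atp6ap1 T run, chrX:74304459-74304487, plus strand, base 465 of the 3′ UTR: ttagctgttatgTTTTTTgggggggaggg
Atp6v0c ATTTA, chr17:24164071-24164099, minus strand, base 317 of the 3′ UTR: cactggatgtttATTTAtaaaagatttga
Atp6v1b2 ATTTA, chr8:69112933-69112961, plus strand, base 376 of the 3′ UTR: cttcagtctcaaATTTAggggcaaagtgg
Both letter patterns are common. ATTTA was present in 64.1% of all 3′ UTRs and in 62.8% of the 2296 UTRs with 0.8 to 1.2 times the length of that of Atp6ap1, and TTTTT in 72.0% and 75.3%. Of the 10 mouse genes, Atp6v0e included, 9 held ATTTA and 8 held TTTTT. Atp6v1d had the longest UTR (2744 bases) and the most matches, 9 of ATTTA and 24 of TTTTT, counted with overlaps. Atp6v0d1, with 438 bases, had 0 of either. Atp6ap1 thus stood among the members with few of these letters. A match describes letters and does not show that HuR binds there. Human sequence was not used here.

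Promoter letters were compared between members as well. The CACGTG E-box, the core of the element bound by TFEB and related factors at many lysosomal genes, was searched on both strands in RefSeq promoters of GRCm38.p6, from 250 bases before to 50 after the start. It was present in 2 of the 7 members with a promoter sequence, Atp6v0d1 and Atp6v1a, and in Atp6v0e, against 7.15% of 32851 promoters. The 3 windows are shown because they set these genes apart from Atp6ap1, with the E-box in capitals.
Atp6v0d1, chr8:105566050-105566079, minus strand: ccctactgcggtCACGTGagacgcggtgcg
Atp6v1a, chr16:44139373-44139402, minus strand: ttttttttaaatCACGTGataggcttaacg
Atp6v0e, chr17:26676387-26676416, plus strand: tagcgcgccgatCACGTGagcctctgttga
Each of the 3 also matched the longer letters TCACGTG, which 3.77% of all promoters held. The Atp6ap1 promoter held no CACGTG and 2 copies of the GC box GGGCGG, which occurred in 35.7% of all promoters and in 5 of the 7 members. The GC box closest to the start lies at chrX:74297087-74297116: ccagatcgttgaGGGCGGggcttgggcgga

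ATP6AP1, the accessory protein Ac45 of the V0 sector, was higher after HuR KD in human cells and lower in mouse liver. Human ATP6AP1 (ENSG00000071553.17) was at 12.6, 15.9, 18.2 and 10.2 TPM in the 4 HuR KD livers and at 7.60, 8.49, 7.21 and 8.56 TPM in the 4 LacZ livers. Each HuR KD liver lay above every LacZ liver, and HuR KD 4, one of the deepest libraries, lay closest to them. Mean levels were 14.2 ± 3.53 and 7.97 ± 0.66 TPM (SD, n = 4 each), a ratio of 1.79 and a log2 fold change of 0.74 ± 0.18 (SE, on log2(TPM + 1)). The gene was covered by 68 to 549 reads per liver. Without humanized HuR KD 4 and LacZ 2 the log2 fold change was 0.90, and without HuR KD 3, the highest liver, 0.62.

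Mouse Atp6ap1 ran the other way. It was at 26.1 to 30.1 TPM (median 29.0) in the 6 WT HuR KD livers and at 40.1 to 50.9 TPM (median 45.2) in the 6 WT LacZ livers. All HuR KD livers lay below all LacZ livers. The mean fell from 45.1 ± 3.80 to 28.7 ± 1.46 TPM (SD, n = 6 each), to 63.6% of the LacZ level, with a log2 fold change of -0.63 ± 0.06 (SE). The value was -0.62 without WT LacZ 2 and HuR KD 6. The human log2 fold change exceeded the mouse value by 1.37 ± 0.19 (SE).

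**Figure D1:**
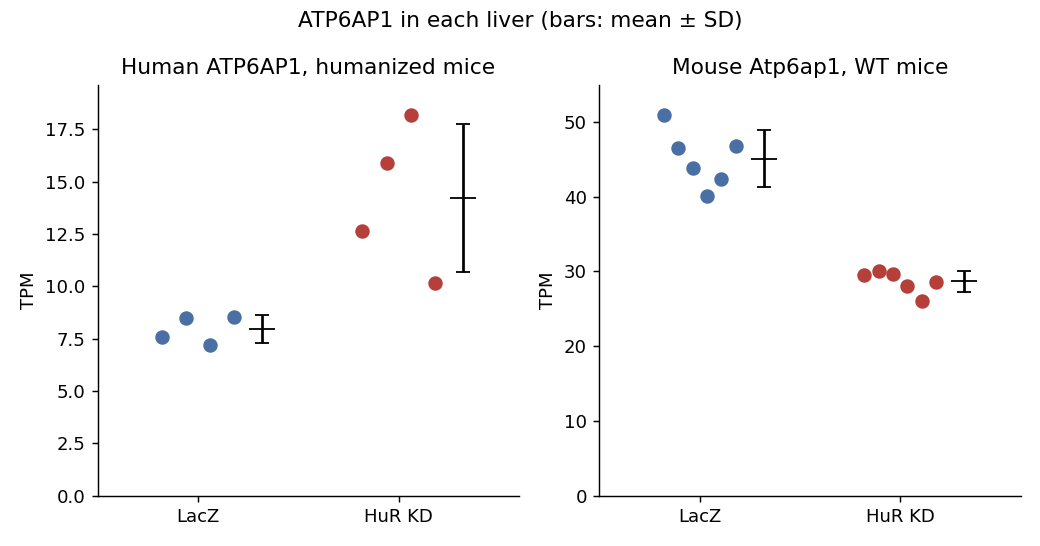
TPM of ATP6AP1 in each liver (points) by virus, for human ATP6AP1 in humanized mice on the left and mouse Atp6ap1 in WT mice on the right, with the mean ± SD beside each group. The 4 human HuR KD values (10.2 to 18.2 TPM) lie above the 4 LacZ values (7.21 to 8.56 TPM), and the 6 mouse HuR KD values (26.1 to 30.1 TPM) lie below the 6 LacZ values (40.1 to 50.9 TPM).

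Among all genes tested, 2.13% had non-overlapping groups with HuR KD higher and 5.03% with HuR KD lower in humanized livers, and 1.25% and 1.23% in WT livers. Of the 9 members measured in humanized livers (mean of at least 1 TPM), 3 had non-overlapping groups, all higher in HuR KD: ATP6AP1, ATP6V1B2 and ATP6V0D1. Of the 9 in WT livers, Atp6ap1 alone had non-overlapping groups. These counts describe the contrast by which the genes were chosen and carry no further weight. The median log2 fold change of the members was 0.17 in humanized livers, where the median of all genes was -0.05, and -0.01 in WT livers, where it was 0.03.

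**Figure D2:**
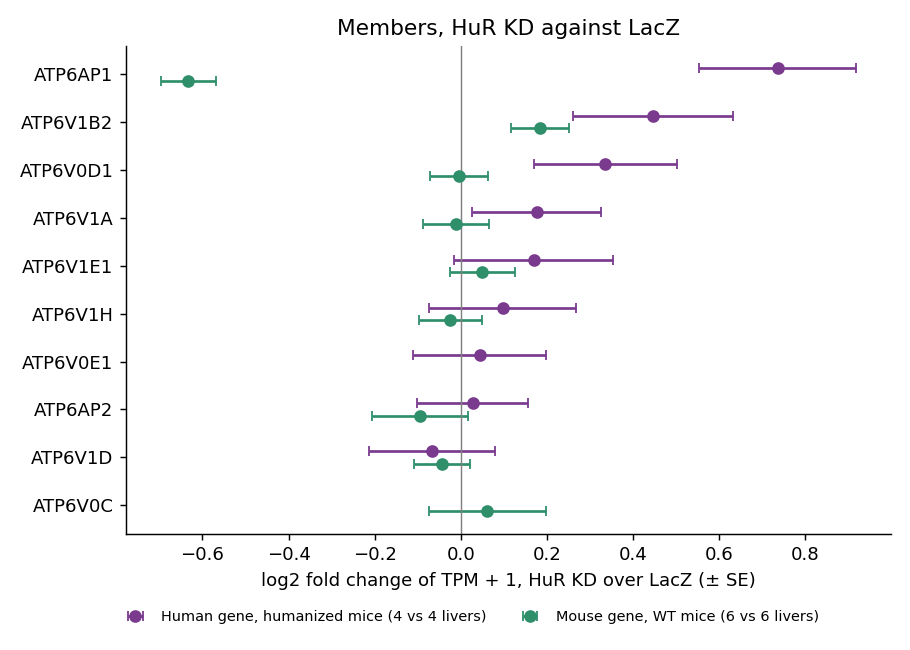
Log2 fold change of TPM + 1 (x axis), HuR KD over LacZ, for each member (y axis), in human cells of humanized mice (purple) and in WT mouse liver (green), with bars of 1 SE from the limma fit. ATP6AP1 is at 0.74 in human and -0.63 in mouse, while the other members lie between -0.09 and 0.45; human ATP6V0C did not pass the filter and ATP6V0E1 has no mouse gene of that symbol.

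ATP6AP2, the other accessory protein, also known as the prorenin receptor, did not follow ATP6AP1. Human ATP6AP2 was at 10.5, 11.5, 13.3 and 11.2 TPM in HuR KD livers and at 10.5, 10.8, 11.5 and 12.6 TPM in LacZ livers. The groups overlapped over nearly their whole range, and the log2 fold change was 0.03 ± 0.13 (SE). Mouse Atp6ap2 ranged from 28.6 to 41.6 TPM (median 39.1) in HuR KD and from 31.1 to 46.2 TPM (median 38.9) in LacZ livers, with a log2 fold change of -0.09 ± 0.11 (SE). The ratio of ATP6AP1 to ATP6AP2 TPM was 0.906 to 1.39 in human HuR KD livers and 0.626 to 0.786 in LacZ livers. In WT livers it was at most 1.00 after HuR KD (median 0.730) and at least 1.01 with LacZ (median 1.12).

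In the V0 sector, ATP6V0D1, the subunit that links the membrane ring to the rotor, was at 10.5, 12.9, 17.7 and 11.3 TPM in human HuR KD livers. It was at 9.58, 9.87, 10.3 and 10.1 TPM in LacZ livers. The groups did not overlap, but the lowest HuR KD and the highest LacZ value lay close together. The log2 fold change of 0.34 ± 0.17 (SE) became 0.19 without HuR KD 3 and 0.42 without HuR KD 1. It was 0.41 to 0.43 with median-of-ratios factors, quantile normalization, rescaling to nuclear protein-coding genes and voom. Mouse Atp6v0d1 was at 62.1 ± 2.22 TPM in HuR KD and 62.5 ± 6.00 TPM in LacZ livers (SD, n = 6 each). Its groups overlapped, with a log2 fold change of -0.00434 ± 0.07 (SE).

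ATP6V0C, which forms the proton-carrying ring, could be read in mouse only. Human ATP6V0C was listed at 0 TPM in HuR KD 1 and 2 and in LacZ 3 and 4, and at 0.457, 0.509, 0.545 and 0.257 TPM in HuR KD 3, HuR KD 4, LacZ 1 and LacZ 2, from at most 8 reads. LacZ 2, with 19891555 reads on genes, had 4 on ATP6V0C and 911 on ATP6V0E1. Whether reads of this gene were lost in counting was not tested, and no comparison was made for the human gene. Mouse Atp6v0c was at 23.3 to 25.7 TPM in WT HuR KD 1 to 5 and at 42.0 TPM in HuR KD 6, against 22.9 to 32.1 TPM (median 24.3) in LacZ livers. HuR KD 6, a shallow library, held the highest value of all 12, and the log2 fold change of 0.06 ± 0.14 (SE) turned to -0.06 without it.

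ATP6V0E1, a small V0 subunit, was the most abundant member in human cells, at 51.7 to 72.9 TPM in HuR KD and 51.6 to 67.5 TPM in LacZ livers, with a log2 fold change of 0.04 ± 0.16 (SE). Mouse Atp6v0e was at 18.3 to 21.9 TPM in HuR KD and at 15.9 to 17.7 TPM in LacZ livers. Each of the 6 HuR KD livers lay above every LacZ liver, with a log2 fold change of 0.27 ± 0.06 (SE). It was added to the description because of its name and was not tested either.

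In the V1 sector, ATP6V1B2, the nucleotide-binding B subunit, had the highest human log2 fold change of the members after ATP6AP1. It was at 12.7, 11.1, 16.1 and 10.9 TPM in HuR KD livers and at 9.17, 10.3, 10.4 and 6.45 TPM in LacZ livers. The groups lay apart by a small gap, and LacZ 4 stood below the other LacZ livers. The log2 fold change of 0.45 ± 0.19 (SE) became 0.31 without LacZ 4 and 0.57 without HuR KD 4 and LacZ 2 together. Mouse Atp6v1b2 was at 25.7 to 31.7 TPM (median 30.7) in HuR KD and 23.3 to 28.4 TPM (median 26.2) in LacZ livers. Here 5 of 6 HuR KD livers lay above every LacZ liver, and the log2 fold change was 0.18 ± 0.07 (SE), the highest among the mouse members of the same symbol.

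The catalytic subunit ATP6V1A was at 46.9, 47.1, 62.6 and 43.7 TPM in human HuR KD livers and at 48.2, 38.3, 44.4 and 44.7 TPM in LacZ livers. Only HuR KD 3 lay above the LacZ range. The log2 fold change of 0.18 ± 0.15 (SE) became 0.07 without that liver and 0.24 without HuR KD 4. Mouse Atp6v1a gave -0.01 ± 0.08 (SE). ATP6V1E1, of the peripheral stalk that holds the catalytic head still, ran from 15.7 to 28.9 TPM in human HuR KD and from 16.9 to 20.9 TPM in LacZ livers. Its human log2 fold change was 0.17 ± 0.19 (SE), with 0.02 without HuR KD 3 and 0.305 without HuR KD 1.

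ATP6V1D, of the central rotor, and ATP6V1H, the regulatory subunit that joins V1 to V0, showed overlapping groups in both species. Human ATP6V1D was at 11.8 to 13.7 TPM in HuR KD and 11.5 to 16.0 TPM in LacZ livers, and its human log2 fold change of -0.07 ± 0.15 (SE), the only negative one, became 0.02 with rescaling to nuclear protein-coding genes and 0.01 with median-of-ratios factors. Human ATP6V1H was at 9.03 ± 1.38 and 8.41 ± 1.68 TPM (SD, n = 4 each). In mouse, Atp6v1d gave -0.04 ± 0.07, Atp6v1h -0.02 ± 0.07 and Atp6v1e1 0.05 ± 0.07 (SE).

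The human values shared a liver. Humanized HuR KD 3 held the highest value of the 8 livers for 7 of the 9 measured members. Its median-of-ratios factor was 1.12. This factor is the typical level, relative to the other libraries, of the genes detected in every library. The factor was highest in LacZ 4 (1.14) and lowest in HuR KD 2 (0.906). Mitochondrial rRNA took from 27.2% (HuR KD 2) to 49.1% (HuR KD 4) of the TPM in humanized livers. The part of such scaling in the shared high values was not tested. Without HuR KD 3 the human log2 fold changes of the members other than ATP6AP1 ran from -0.07 to 0.34, with it from -0.07 to 0.45. In WT livers LacZ 1 (factor 1.06) was highest for 5 of 9 and LacZ 2 (factor 1.02), the shallowest library, lowest for 5 of 9. Without LacZ 2 the log2 fold change of these latter genes was -0.06 for Atp6v0d1, -0.07 for Atp6v1a and -0.09 for Atp6v1d and Atp6v1h. For the fifth, Atp6v1b2, it was 0.14 without both shallow livers. Atp6ap1 was not among the genes lowest in LacZ 2, since its lowest values were all in HuR KD livers. The difference between human and mouse log2 fold changes ran from -0.02 (ATP6V1D) to 0.34 (ATP6V0D1) for the other 7 members measured in both.

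**Figure D3:**
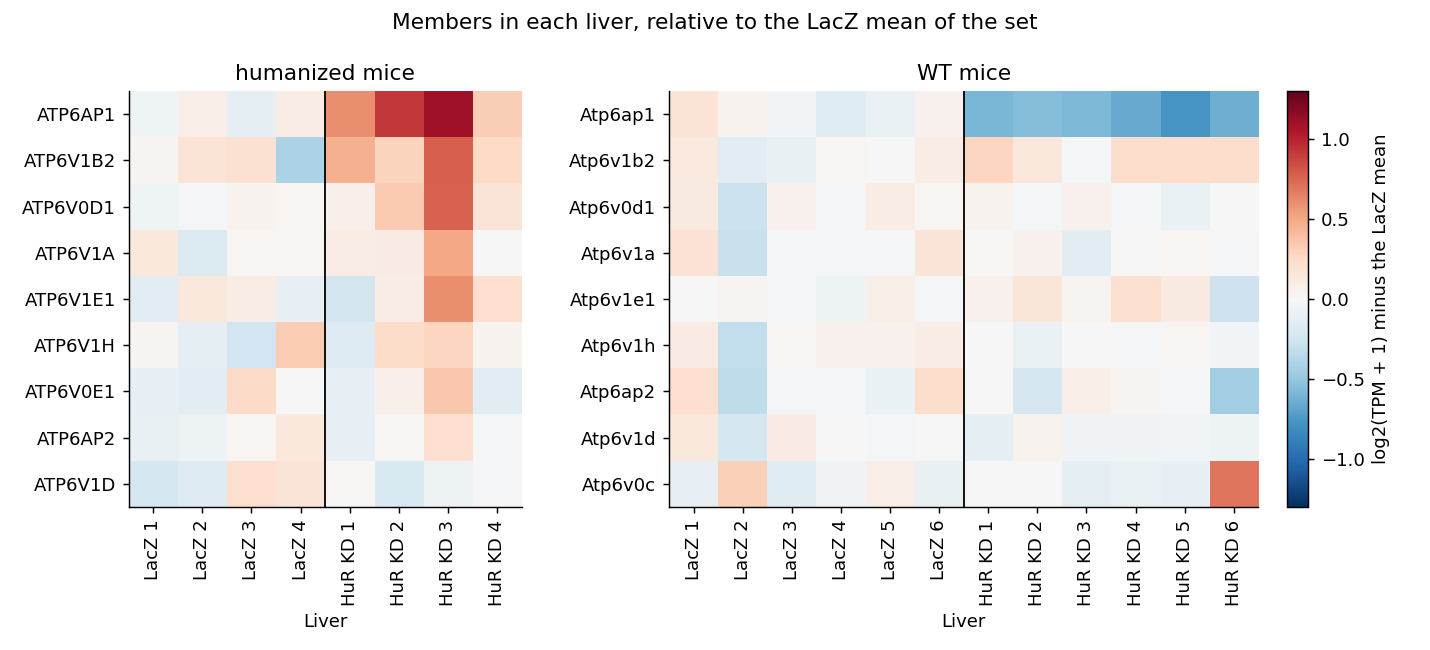
Each member (rows) in each liver (columns) as log2(TPM + 1) minus the mean of the LacZ livers of the set, with red above and blue below that mean; a black line parts LacZ from HuR KD. The Atp6ap1 row is blue in all 6 WT HuR KD livers, the ATP6AP1 row red in all 4 human ones, and the column of humanized HuR KD 3 is the highest for 7 of 9 members.

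The same values can be set against the other members within each library. This restates the contrast by which ATP6AP1 was selected and adds no support to it. ATP6AP1 amounted to 10.8%, 12.8%, 11.2% and 8.39% of the summed TPM of the 7 other members measured in both species in human HuR KD livers, and to 6.65%, 7.74%, 6.03% and 7.29% in LacZ livers. In WT livers it amounted to 9.94% to 12.0% (median 11.3%) after HuR KD and to 15.9% to 20.8% (median 17.2%) with LacZ. The sum of the 7 others itself was 131 ± 20.6 TPM in human HuR KD and 115 ± 4.27 TPM in LacZ livers, and 259 ± 11.3 and 257 ± 19.3 TPM in WT livers. The human and mouse shares come from tables that were normalized apart, so they are not compared with each other.

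**Figure D4:**
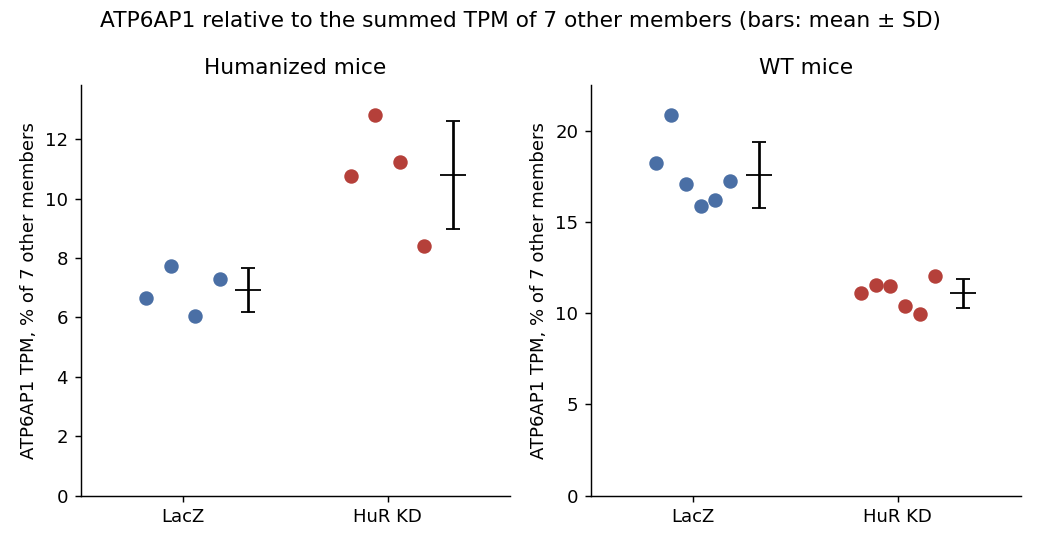
ATP6AP1 as a percentage of the summed TPM of 7 other members (y axis) in each liver, by virus, in humanized (left) and WT mice (right), with the mean ± SD. The share is 8.39% to 12.8% in human and 9.94% to 12.0% in mouse HuR KD livers, against 6.03% to 7.74% and 15.9% to 20.8% in LacZ livers.

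Levels in the LacZ livers are one side of the contrast by which ATP6AP1 was chosen, so its ranks are given as a description, without a test. In humanized LacZ livers, leaving out ATP6V0C, the order of mean TPM was ATP6V0E1 (57.1), ATP6V1A (43.9), ATP6V1E1 (18.8), ATP6V1D (13.7), ATP6AP2 (11.4), ATP6V0D1 (9.99), ATP6V1B2 (9.08), ATP6V1H (8.41) and ATP6AP1 (7.97). Neighbours overlapped among the last 4 genes, as did ATP6V1D with ATP6AP2, and with 4 livers an exact sign-flip test cannot go below p = 0.125. In WT LacZ livers the order was Atp6v0d1 (62.5), Atp6v1e1 (60.3), Atp6ap1 (45.1), Atp6ap2 (39.7), Atp6v1a (35.7), Atp6v1b2 (26.0), Atp6v0c (25.8), Atp6v0e (16.9), Atp6v1d (16.7) and Atp6v1h (16.4). Atp6ap1 lay below Atp6v1e1 and above Atp6ap2 in 6 of 6 livers. Of the 7 pairs of neighbours without Atp6ap1, 0 passed the threshold after adjustment in a two-sided exact permutation (sign-flip) test within livers. The pairs were formed by the same means and 6 livers limit the smallest p, so this test cannot decide whether neighbours differ. In 3 of them, Atp6ap2 over Atp6v1a, Atp6v1a over Atp6v1b2 and Atp6v0c over Atp6v0e, the gene with the higher mean was higher in 6 of 6 livers. Their unadjusted exact p was 0.0312, the smallest that 6 livers allow, and their p adjusted over all 9 pairs of neighbours 0.0563. The remaining 4 pairs did not pass the unadjusted test. Levels were set across tables that were normalized apart, so only their order within a table can be read.

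**Figure D5:**
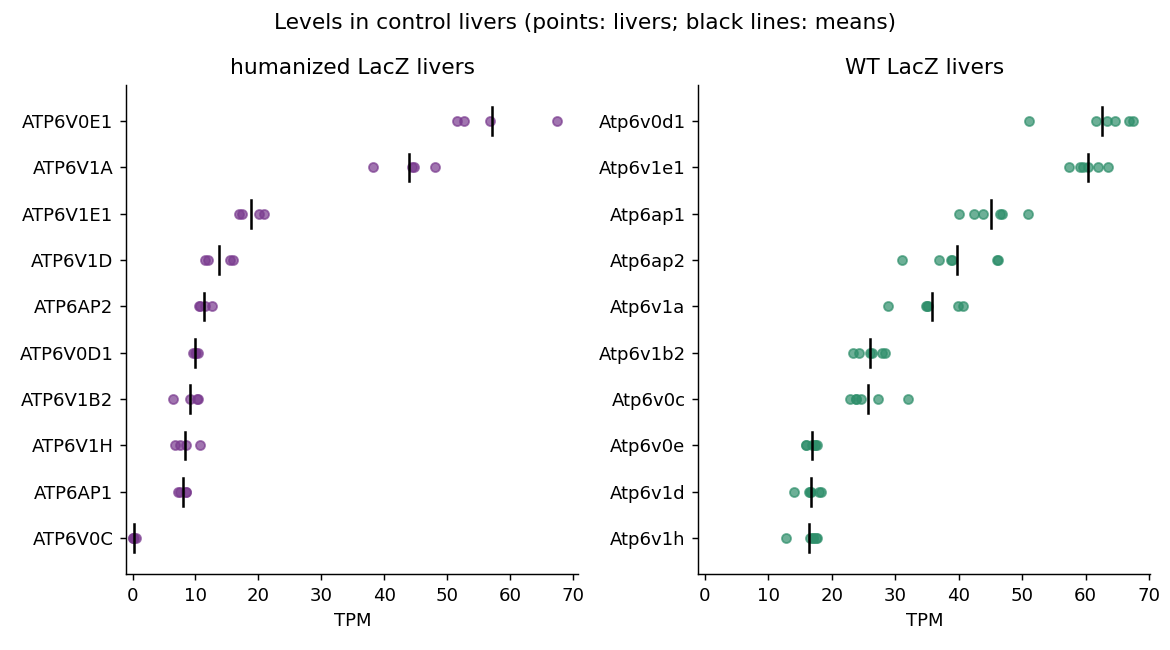
TPM of each member in the control (LacZ) livers, as points for single livers and black lines for means, in humanized mice (left, 4 livers) and WT mice (right, 6 livers), ordered by the mean. ATP6AP1 stands at 7.97 TPM below all other measured members in human cells and Atp6ap1 at 45.1 TPM in the third place in mouse liver.

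The remaining subunits, isoforms and assembly factors of the pump were examined as a list of 24 genes, of which 17 were measured in each set. Over all genes, limma called 3.6% higher and 7.87% lower in humanized livers and 9.09% higher and 6.94% lower in WT livers at an unadjusted p under 0.05. That is 458 higher and 1003 lower human genes, which became 817 and 838 with median-of-ratios factors. Of the 17 human genes, 3 rose (17.6%), 2 fell (11.8%) and 12 did not pass, and 0 were past the threshold after Benjamini-Hochberg adjustment. The adjusted count was 1 with voom, without LacZ 2, and without HuR KD 4 and LacZ 2 together. ATP6V1G1, a peripheral stalk subunit, rose from 50.1 ± 7.42 to 83.9 ± 7.67 TPM (SD, n = 4 each). All of its HuR KD values lay above all LacZ values, with a log2 fold change of 0.74. The p for this gene was 0.00051 by limma (adjusted p = 0.0866). TMEM199, an assembly factor of the endoplasmic reticulum, rose from 2.32 ± 1.12 to 5.07 ± 0.78 TPM, and VMA21, which chaperones the V0 sector, from 10.3 ± 1.64 to 13.7 ± 2.10 TPM (SD, n = 4 each). NCOA7, a protein that binds the pump, fell from 9.48 ± 2.49 to 4.95 ± 1.17 TPM, and ATP6V0E2, an alternative to ATP6V0E1, from 12.6 ± 1.84 to 7.83 ± 2.58 TPM (SD, n = 4 each). The groups overlapped for VMA21 and ATP6V0E2, and TMEM199 rested on 10 to 263 reads per liver.

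In WT livers 0 of the 17 rose, 4 fell (23.5%) and 13 did not pass, and 0 of the 4 passed after adjustment by limma. Atp6v0b, a second proton-carrying subunit of the ring, fell from 47.6 ± 3.52 to 41.7 ± 4.96 TPM, and Tcirg1, a subunit known from osteoclasts and immune cells, from 33.1 ± 4.33 to 27.5 ± 4.74 TPM (SD, n = 6 each). Wdr7, of a complex that helps the sectors assemble, fell from 15.2 ± 1.76 to 12.8 ± 1.07 TPM, and Atp6v1g2, a stalk isoform best known from brain, from 1.64 ± 0.37 to 1.05 ± 0.20 TPM (SD, n = 6 each). Atp6v1g2 lay near the filter and rested on 2 to 88 reads per liver. The groups overlapped for all 4 genes. The mouse counterpart of ATP6V1G1 was at 46.3 ± 3.38 TPM with LacZ and 45.1 ± 7.67 TPM with HuR KD (SD, n = 6 each). Its p was 0.623 by limma (adjusted p = 0.854). The list's median log2 fold change was 0.08 in human and -0.09 in mouse, beside -0.05 and 0.03 over all genes. The count in WT livers was 2 when HuR KD 3, 4 or 5 or LacZ 1 or 2 was left out alone, and 4 without both shallow livers. After adjustment 3 genes passed without both shallow livers, and 1 without HuR KD 6 alone or with voom.

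Lysosomal enzymes, membrane proteins and sorting receptors, the genes whose products work in the compartment that the pump acidifies, fell more often than they rose in WT livers. Of 64 measured, 4 rose (6.25%, against 9.09% of all genes), 15 fell (23.4%, against 6.94%) and 45 did not pass. After adjustment by limma 0 rose and 1 fell. The median log2 fold change was -0.09, beside 0.03 over all genes. Ctsd, the protease cathepsin D, and Asah1, the acid ceramidase, were among those that fell with the smallest p. Npc1, which exports cholesterol from lysosomes, Gnptg, of the enzyme that tags lysosomal enzymes, and Igf2r, their sorting receptor, had the smallest among those that rose. Of 11 macrophage markers measured 6 fell, against 6.94% of all genes, and 0 of the 12 in the table were at 0 in every liver. Their summed level was 484 to 821 TPM in HuR KD and 685 to 941 TPM in LacZ livers. Other markers moved too: of 6 measured in each list, 2 of T and NK cells and 1 of stellate cells fell, and 1 of endothelial cells rose. The T and NK cell sums were 11.4 to 22.5 TPM in HuR KD and 16.6 to 31.3 TPM in LacZ livers. Of the hepatocyte, B cell, neutrophil, cholangiocyte and erythroid markers 0 were called. The part of these cell types in the results on WT livers, Atp6ap1 included, was not tested. In bulk liver fewer cells of a type and less RNA per cell cannot be told apart. Without WT LacZ 2 and HuR KD 6, 3 of the lysosomal genes rose and 13 fell, and 5 passed after adjustment. Without LacZ 6, 2 rose and 10 fell, and 0 passed after adjustment.

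In humanized livers the lysosomal list gave 1 higher (1.72%) and 5 lower (8.62%) of 58 measured (3.6% and 7.87% of all genes), and 0 after adjustment by limma. The split turned with the scaling, to 5 higher and 3 lower with median-of-ratios factors and 5 and 2 with rescaling to nuclear protein-coding genes, and it was 4 and 6 with quantile normalization and 2 and 2 with voom. LIPA, the lysosomal acid lipase, rose from 24.4 ± 0.95 to 32.5 ± 3.78 TPM (SD, n = 4 each). CTSS, the protease cathepsin S, fell from 22.9 ± 5.52 to 13.9 ± 0.87 TPM, MAN2B1, a mannosidase, from 6.95 ± 0.17 to 4.72 ± 0.63 TPM, and GUSB, a glucuronidase, from 35.6 ± 2.37 to 28.3 ± 3.27 TPM (SD, n = 4 each). The number called was 3 without HuR KD 1, HuR KD 2 or LacZ 1, 11 without HuR KD 3, and 10 without HuR KD 4 and LacZ 2 together. Human macrophage markers summed to 7.25 to 67.6 TPM in HuR KD and 21.4 to 143 TPM in LacZ livers, nearly all of it LYZ (up to 142 TPM), and 0 of them were called by limma. Markers of other cells did move in humanized livers. Of 4 cholangiocyte markers measured 2 fell, with sums of 5.26 to 29.4 against 11.5 to 44.4 TPM, while KRT19 was at most 0.585 TPM. Of 2 stellate cell markers 1 fell, with sums of 2.73 to 4.80 against 5.26 to 7.26 TPM. Those 2 were PDGFRB and RELN, and DCN, COL1A1, COL3A1 and LRAT each stayed at or below 0.774 TPM. Whether human cells of these types were present, and their part in the results on humanized livers, ATP6AP1 included, was not tested.

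Genes of amino acid sensing at the lysosome, which ATP6AP1 and the pump are known to serve, were called at shares near those of all genes. In humanized livers 0 of 22 rose, against 3.6% of all genes, and FNIP2, a partner of folliculin, fell (4.55% against 7.87%). In WT livers Rptor and Mlst8, subunits of mTORC1, and Nprl3, of a complex that restrains it, rose (12.5% of 24 against 9.09%), and Rheb, the GTPase that activates it, fell (4.17% against 6.94%). In both sets 0 passed after adjustment by limma. With median-of-ratios factors and with voom the WT split was 2 higher and 2 lower. The lower human call was lost when HuR KD 1, 2 or 4 or LacZ 2, 3 or 4 was left out, and without HuR KD 4 and LacZ 2 together. It was also lost with quantile normalization, rescaling to nuclear protein-coding genes or the replicate block. At means of 1.70 TPM in HuR KD and 2.59 TPM in LacZ livers, FNIP2 was outside the filter of at least 5 TPM. A single higher call stood in place of the lower one without HuR KD 2 or LacZ 2, with the higher filter, with quantile normalization and with rescaling.

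The genes whose levels ran most alike with ATP6AP1 over the 20 livers were other metabolic and regulatory genes rather than pump subunits. Likeness was Pearson's r of log2(TPM + 1), taken as the difference from the mean of the set, over 8201 genes with the same symbol in both tables, and is given as a description, since the points share libraries, depth and the contrast that chose ATP6AP1. The highest r were those of ACSL1 (0.889), a long-chain acyl-CoA synthetase, RFK (0.856), the riboflavin kinase, CDKN2AIPNL (0.834), TLE3 (0.827), a transcriptional corepressor, and SLC25A17 (0.810), a peroxisomal carrier. ACSL1 was at 532 ± 56.9 TPM in human HuR KD and 316 ± 29.5 TPM in LacZ livers (SD, n = 4 each), and at 413 ± 43.6 and 561 ± 89.6 TPM in WT livers (SD, n = 6 each). Among the members, ATP6V0D1 came closest, at r = 0.587 and rank 196, followed by ATP6V1A (0.433), ATP6V1H (0.326), ATP6AP2 (0.305), ATP6V1B2 (0.254) and ATP6V1E1 (0.247). ATP6V1D was at -0.08 and rank 4408.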

How the data were processed

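Total RNA from 20 livers was sequenced as strand-specific paired-end libraries. The authors trimmed the reads, aligned them with HISAT2 (WT livers to mouse, humanized livers to a combined human and mouse index), counted them per gene with featureCounts and deposited TPM values that sum to 1000000 per library. The submitters' processing notes name Trim Galore, HISAT2, featureCounts and Subread and the builds mm10 and GRCh38. The formula and gene lengths behind the TPM, and whether counting used strand, are not given in the sources used here. Overlapping genes on the opposite strand (Slc18a1 with Atp6v1b2, Slc25a18 with Atp6v1e1, Rgs20 with Atp6v1h) make those mouse values less certain.

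Genes with a mean of at least 1 TPM over a set, 12738 human and 15090 mouse, were compared as log2(TPM + 1) with limma 3.58.1 in R 4.3.3 (lmFit, eBayes with trend), each set alone, with calls at an unadjusted p under 0.05, the threshold of the study, and Benjamini-Hochberg adjusted counts beside them. A fold change on this scale understates the change of low genes. The fit was tested on simulated data. Members and lists were chosen with earlier results of these data known. All members and pump genes may be named, up to 3 genes with the smallest p per direction of each other list, and the 5 genes most like ATP6AP1, except that 1 gene is not reported here. Reads per gene were recovered in Python 3.11.15 as the whole numbers that explain the steps of a gene's TPM, which succeeded for every gene with enough libraries above 0 (18702 human, 25110 mouse). They set the precision of low TPM, and intervals from replicates cover the spread between mice. Each library is from 1 liver, and replicates are separate mice. Sequences came from GENCODE M21 and RefSeq. 3′ UTRs of at least 50 bases in principal transcripts were searched.

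Alternatives were log2(TPM + 0.1), no filter, a mean of at least 5 TPM, median-of-ratios factors, quantile normalization, rescaling to nuclear protein-coding genes, eBayes without trend, voom on the recovered reads, the replicate number as a block, and each liver left out. Leaving out the 2 shallowest WT or the 2 deepest humanized livers was chosen after seeing the data.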

Additional observations from a re-analysis of the deposited data

Results flagged for a closer look

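Among 36 sets of member values within a group of livers, 3 had a liver far from the others by Dixon's gap test, which flags about 1 in 20 groups by chance. Atp6v0c was at 42.0 TPM in WT HuR KD 6, where the other HuR KD livers were at 23.3 to 25.7 TPM. Atp6v0d1 was at 51.1 TPM in WT LacZ 2 against 61.6 to 67.5 TPM in the other LacZ livers, and Atp6v1h at 12.9 TPM in the same liver against 16.6 to 17.7 TPM. Both livers are the shallowest of their set, and the part of depth was not tested. ATP6AP1 differed between the sets by 1.37 in log2 fold change, since every human HuR KD liver lay above and every mouse one below its LacZ livers. That difference was not tested, because the genes were chosen with it known.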

How the results depend on the processing

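ATP6AP1 kept its direction under all alternatives, with a log2 fold change of 0.62 to 0.90 in humanized and -0.67 to -0.60 in WT livers. The 16 values of the other members moved by less than the spread between livers under 320 of 320 alternatives. For many alternatives that outcome was fixed, so the count does not measure how stable the values are. Leaving out a single liver cannot move a value by that spread. The filters, eBayes without trend and the block leave the value unchanged. Some small values did change sign, such as human ATP6V0E1, from 0.04 to -0.06 without HuR KD 3. Counts of called genes depended more on the livers. Leaving out each liver in turn gave 4 to 6 other pump genes in humanized and 2 to 4 in WT livers, 3 to 11 lysosomal genes in humanized and 12 to 20 in WT livers, and 0 to 1 sensing genes in humanized and 3 to 6 in WT livers. Without the 2 deepest humanized livers, 10 lysosomal and 0 sensing genes were called. Quantile normalization called 10 lysosomal genes in humanized livers, median-of-ratios factors and voom each called 2 sensing genes, and a mean of at least 5 TPM called 2 sensing genes in WT livers. The cause was not tested. The replicate number as a block left 0 sensing genes in humanized livers and moved no other list count by over 1.5 times. Same-numbered livers deviated together with r from -0.25 to 0.14 in humanized and from -0.14 to 0.21 in WT livers, so the numbers were not taken as pairs. Over all human genes 27 passed after adjustment, 70 with median-of-ratios factors, 1 with no filter and 0 with the block. The order of control levels was not repeated without single livers, since 5 livers cannot pass the threshold. The least covered member measured had 58 reads in humanized and 38 in WT livers.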
